A study of Danio rerio with 4 samples.

Results

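The chemokine Cxcl12, the peptides Apelin and Apela (also called Toddler or Elabela) and the lipid sphingosine-1-phosphate guide cells through G protein-coupled receptors while the zebrafish gastrula forms its layers. Expression of 9 genes of these systems was described in single cells of whole shield-stage embryos: the ligands *cxcl12a*, *cxcl12b* and *apela*, and the receptors *cxcr4a*, *cxcr4b*, *ackr3b*, *aplnra*, *aplnrb* and *s1pr5a*. The genes were listed by name, and their levels were compared across cells holding 1 of 7 marker genes and across libraries. Entries with a number added to the symbol were included, which gave 12 of the 47394 gene entries in the count matrix. Of the 9 genes, 8 had more than 3 UMIs in all cells together, a UMI being 1 counted mRNA molecule.

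Cxcl12 is bound by Cxcr4, through which it steers migrating cells, and by Ackr3, an atypical chemokine receptor that takes up Cxcl12 and lowers its amount around the cell. In the zebrafish gastrula, mesodermal Cxcl12b and endodermal Cxcr4a are known for tying the endoderm to the mesoderm, and Cxcl12a and Cxcr4b for guiding primordial germ cells (PGCs). Apela acts through the Apelin receptors Aplnra and Aplnrb, which are known for the ingression and animal-pole movement of mesendodermal cells and for heart formation. S1pr5a belongs to the receptors for sphingosine-1-phosphate, a lipid whose receptors link to heterotrimeric G proteins.

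The study compared siblings, labelled wild type, with embryos that lacked maternal Rbm24a (M*rbm24a*), to see which cells depend on this RNA-binding protein. The mothers of M*rbm24a* embryos were founder fish homozygous for an *rbm24a-RFP* knock-in, with Cas9 under the oocyte promoter *zpc* and a transgene of 4 guide RNAs marked by BFP, and embryos with BFP and no Rbm24a-RFP were taken. Cells of 33 whole embryos, the number stated, were profiled on the 10x Chromium platform, with 2 libraries per genotype, called sibling 1, sibling 2, M*rbm24a* 1 and M*rbm24a* 2. Whether this number is per library, per genotype or in all is not clear. It is not said whether the libraries came from separate clutches, so p-values measure only the spread between libraries.

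The 14455 cells divided into 3534, 3567, 3402 and 3952 over sibling 1, sibling 2, M*rbm24a* 1 and M*rbm24a* 2, the order used for every set of 4 values below. The libraries held 40176506 to 61973441 UMIs, with a median per cell of 9778 to 15667. Depth differed between libraries, since 740 cells of sibling 2 and none of sibling 1 had fewer than 1000 UMIs. The libraries shared 16 barcode sequences, carried by 32 cells. *rbm24a* itself stood at 0.314 to 0.469 CPM (a gene's UMIs relative to all UMIs of the cells taken) in all libraries, and 3′ counts do not check the mutation.

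Cells were called positive for a marker where its value was over 0.5 UMI. This gave 982 cells with *krt92*, a keratin of the enveloping layer (EVL), 4412 with the endoderm determinant *sox32*, 3796 with the axial mesoderm gene *noto*, 3487 with the paraxial gene *tbx6l*, 2282 with the lateral mesoderm gene *twist1a*, 2321 with the epidermal gene *foxi1* and 3411 with the neural gene *her3*. These populations are not cell types. They overlapped, with 5382 cells positive for at least 2 markers, 59.2% of the *twist1a*-positive cells also positive for *sox32*, and 3352 cells positive for none. The other markers of each lineage nevertheless rose with the marker used: 11 of 11 tested EVL entries in *krt92*-positive cells, 5 of 6 endodermal, 6 of 6 axial, 6 of 6 paraxial, 5 of 6 lateral, 5 of 7 epidermal and 4 of 5 neural. Lineages close to each other were mixed, since all 7 tested lateral entries also rose in *tbx6l*-positive cells, where 21.5% of all genes were called. The lists also share genes, with *mespaa* in the paraxial and lateral lists and *gata5* in the endodermal and lateral lists.

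A stricter selection, chosen after the data had been seen, took cells with at least 3000 UMIs in which the marker had a value over 1.5 and exceeded 300 CPM of that cell's UMIs. Such cells are called marker-rich. There were 266 *krt92*-rich, 675 *sox32*-rich, 477 *noto*-rich, 468 *tbx6l*-rich, 331 *twist1a*-rich, 64 *foxi1*-rich and 360 *her3*-rich cells, and at most 6.50% of the cells in any of them were rich for 1 given other marker. The 7 M*rbm24a* 1 and 9 M*rbm24a* 2 cells rich for *foxi1* were too few for a test. Folds come from summed UMIs of positive or rich cells against the remaining cells of the same library, tested with edgeR's quasi-likelihood test with the library as a block and Benjamini-Hochberg adjustment over all genes.

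**Figure D1:**
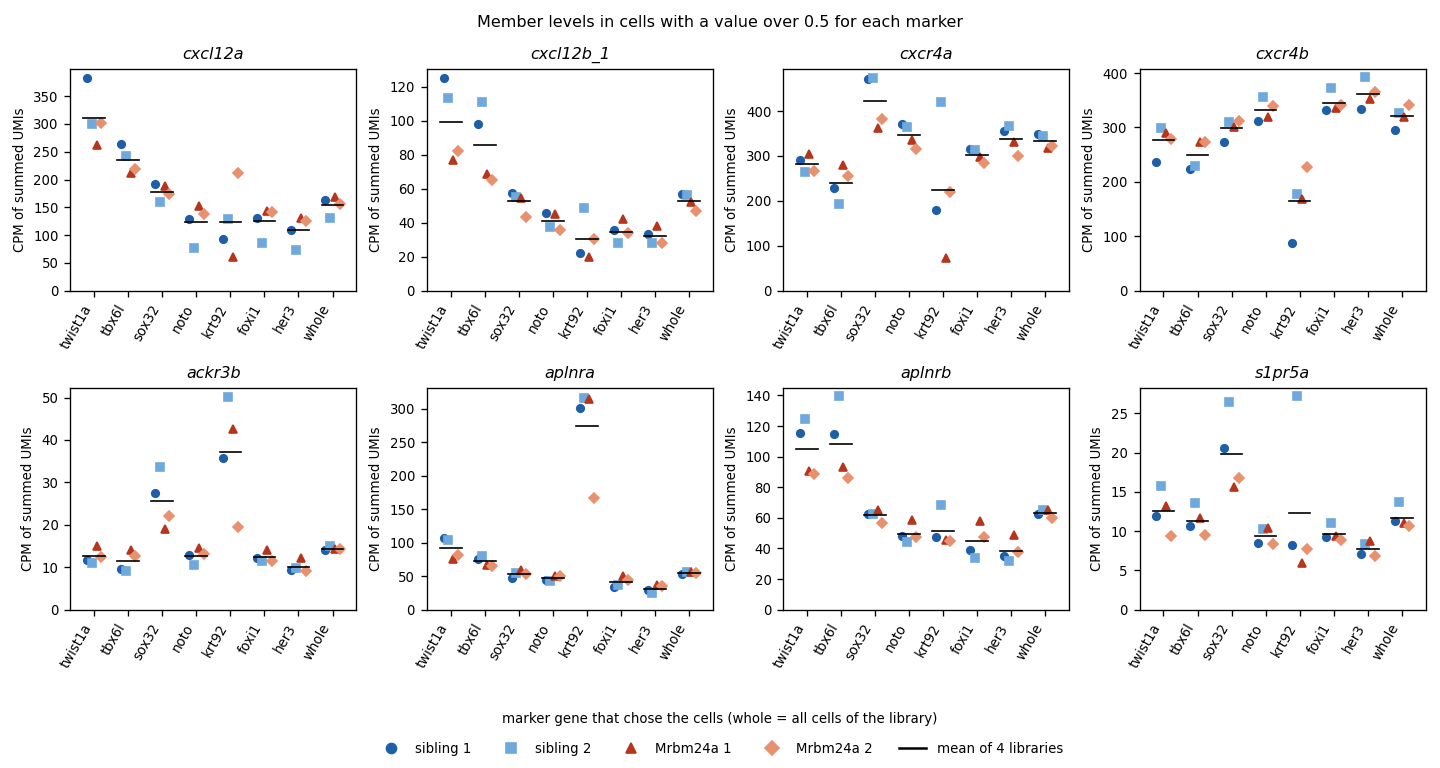
Levels in CPM (linear axes starting at 0) of *cxcl12a*, *cxcl12b_1*, *cxcr4a*, *cxcr4b*, *ackr3b*, *aplnra*, *aplnrb* and *s1pr5a* in cells with a value over 0.5 for each of the 7 markers and in whole libraries. Each point is 1 library and the bar is the mean of the 4 libraries; *cxcl12a* is highest in *twist1a*-positive cells, at 262 to 383 CPM, and *aplnra* in *krt92*-positive cells, at 167 to 316 CPM.

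*cxcl12a*, a gene for the ligand Cxcl12, was highest in cells with the lateral mesoderm marker. In *twist1a*-positive cells it stood at 383, 300, 262 and 301 CPM, a mean of 312 ± 51.1 CPM (SD, n = 4 libraries), against 163, 130, 168 and 155 CPM in whole libraries. In *tbx6l*-positive cells it stood at 264, 243, 212 and 219 CPM. Levels fell in the order *twist1a*, *tbx6l*, *sox32*, *foxi1*, each step beyond the spread over libraries, and *foxi1*, *noto*, *krt92* and *her3* followed with steps within it. The log2 fold against negative cells was 1.76 (SE 0.13, adjusted p = 0.0011) for *twist1a*, 1.25 (SE 0.13, adjusted p = 0.00085) for *tbx6l* and 0.50 (SE 0.030, adjusted p = 0.00044) for *sox32*.

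The contrast was steeper in rich cells. *cxcl12a* reached 1169, 999, 1086 and 1023 CPM in *twist1a*-rich cells, and the other cells of the same libraries held 124, 101, 149 and 137 CPM, an 8.17-fold difference (log2 3.03, SE 0.066). The libraries of either genotype thus lay close together, and every one was far above its own other cells. *tbx6l*-rich cells held 267, 278, 215 and 256 CPM and *sox32*-rich cells 221, 186, 259 and 249 CPM, which did not differ beyond their spread. At the low end were *her3*-rich cells, with 22.1, 26.2, 50.1 and 26.4 CPM, where *cxcl12a* was 6.13-fold lower than in the remaining cells. Of *twist1a*-rich cells, 93.4% to 99.2% held *cxcl12a*, and of *her3*-rich cells 19.1% to 33.3%, at median depths of 10481 to 14892 and 10327 to 16541 UMIs.

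*cxcl12b* was counted under the entry *cxcl12b_1*, and the entry without a suffix held no UMI. The levels of *cxcl12b_1* followed a similar order. In *twist1a*-rich cells it stood at 403, 394, 319 and 415 CPM, in *tbx6l*-rich cells at 177, 187, 130 and 138 CPM and in *her3*-rich cells at 7.83, 8.83, 8.27 and 8.85 CPM. All steps of the order *twist1a*, *tbx6l*, *sox32*, *noto*, *krt92*, *her3* exceeded the spread over libraries. The fold was 8.57 in *twist1a*-rich and log2 1.72 in *tbx6l*-rich cells, and *cxcl12b_1* was 7.07-fold lower in *her3*-rich cells. In cells merely positive for *twist1a* or *tbx6l* the log2 folds were 1.51 (SE 0.12, adjusted p = 0.0012) and 1.38 (SE 0.14, adjusted p = 0.00077).

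*apela*, the ligand of the Apelin receptors, could not be described. The entry *apela* had no UMI and the entry *apela_1* had 1 UMI in 14455 cells, and a count of 0 in a library allows up to 0.0484 to 0.0747 CPM (3 UMIs, counting error only). *apln*, the gene for Apelin, did not exceed 0.0747 CPM in any library. These counts say only that no molecules were assigned to these entries.

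**Figure D2:**
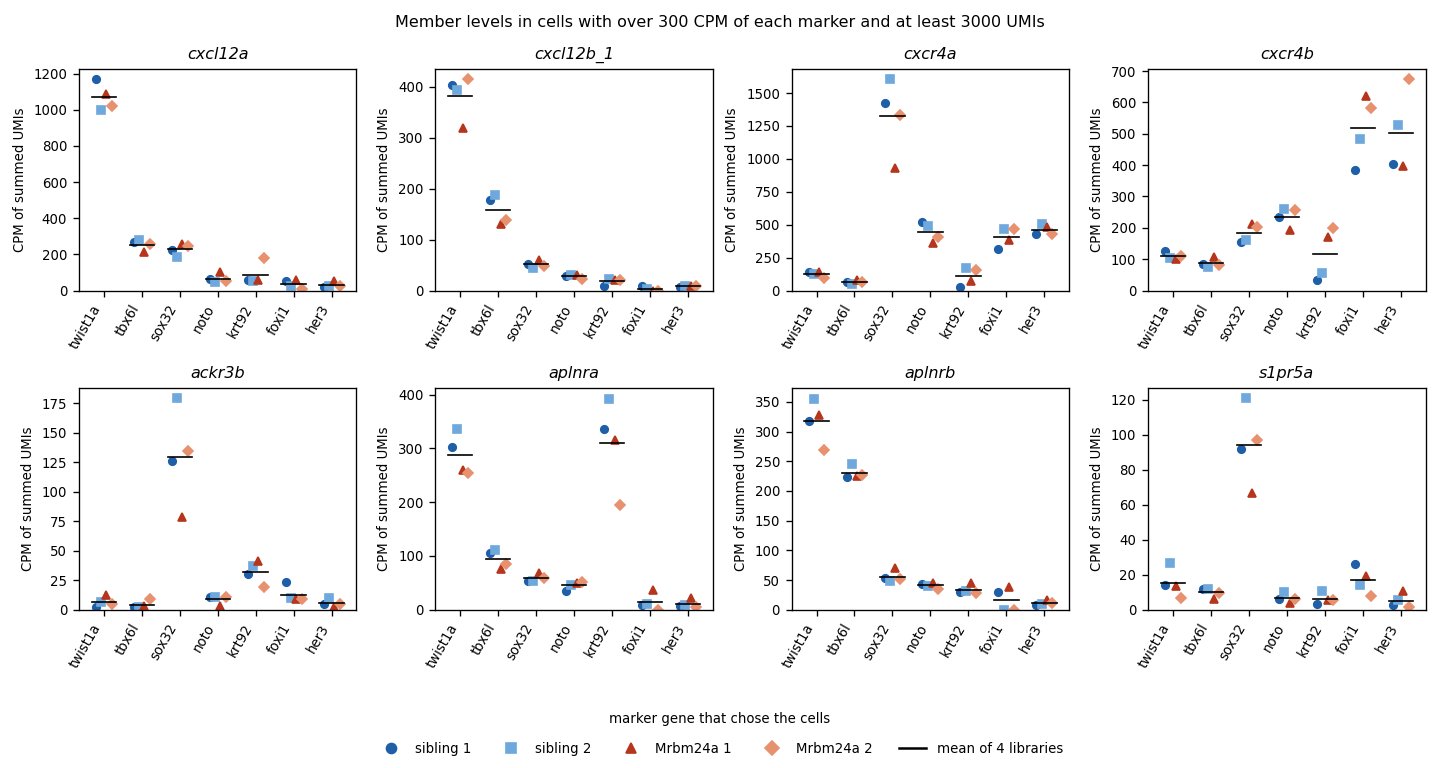
Levels in CPM (linear axes starting at 0) of the same 8 gene entries in marker-rich cells, which hold more than 300 CPM of the marker. Each point is 1 library and the bar is the mean of the 4; *cxcl12a* and *cxcl12b_1* peak in *twist1a*-rich cells, *cxcr4a*, *ackr3b* and *s1pr5a* in *sox32*-rich cells, and *aplnra* in both *krt92*-rich and *twist1a*-rich cells.

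*cxcr4a*, a receptor of Cxcl12, was highest in cells with the endoderm marker. *sox32*-positive cells held 471, 474, 363 and 383 CPM (mean 423 ± 58.1, SD, n = 4), with a log2 fold of 0.74 (SE 0.044, adjusted p = 0.00044). *sox32*-rich cells held 1427, 1605, 928 and 1334 CPM and the other cells 261 to 286 CPM, a 4.74-fold difference (log2 2.25, SE 0.068, adjusted p = 1.3e-18). No library overlapped with its other cells, and the lowest value, in M*rbm24a* 1, came from cells with a median of 6582 UMIs, against 10847 to 15345 in the other libraries. The next levels, in *her3*-rich, *noto*-rich and *foxi1*-rich cells, lay at 429 to 504, 359 to 519 and 312 to 471 CPM and did not differ beyond their spread.

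In cells rich for the paraxial or the lateral mesoderm marker, *cxcr4a* was low and its ligand genes were high. *tbx6l*-rich cells held 63.2, 48.0, 77.1 and 68.4 CPM, 5.63-fold lower than the remaining cells, and *twist1a*-rich cells 138, 122, 138 and 95.5 CPM, 2.80-fold lower. Each was tested against the rest of its library, and not against *sox32*-rich cells. In cells merely positive for *tbx6l*, *cxcr4a* also fell (log2 −0.59, SE 0.10, adjusted p = 0.0057). High *cxcl12a* did not always go with low *cxcr4a*: *sox32*-rich cells held 186 to 259 CPM of *cxcl12a* and 928 to 1605 CPM of *cxcr4a*. *noto*-rich cells, of the axial mesoderm marker, held 44.9 to 104 CPM of *cxcl12a* and 359 to 519 CPM of *cxcr4a*.

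*cxcr4b*, the second gene for Cxcr4, was spread more evenly. The 4 whole libraries held 296, 327, 319 and 341 CPM, and cells positive for none of the markers were at 363, 392, 386 and 434 CPM. It rose in *her3*-positive cells (335, 393, 353 and 364 CPM, log2 0.37, SE 0.042, adjusted p = 0.00084), but against cells with none of the markers the log2 fold was −0.05. Rich cells separated more clearly. *her3*-rich cells held 404, 529, 396 and 675 CPM (log2 0.55, SE 0.072), and *foxi1*-rich cells 385, 482, 622 and 582 CPM. *tbx6l*-rich cells held 85.7, 74.98, 106 and 82.2 CPM (log2 −1.96 against the remaining cells), and in *twist1a*-rich cells it was 2.99-fold lower. In *sox32*-rich cells *cxcr4b* fell, by 0.84 on the log2 scale, where *cxcr4a* rose.

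*ackr3b*, the gene for the scavenging receptor, was highest in cells with the endoderm marker and in those with the EVL marker. *sox32*-positive cells held 27.5, 33.7, 18.9 and 22.1 CPM (log2 1.99, SE 0.14, adjusted p = 0.00074), and *krt92*-positive cells 35.9, 50.2, 42.7 and 19.6 CPM (log2 1.47, SE 0.26, adjusted p = 0.00051). These 2 levels did not differ beyond their spread. In *sox32*-rich cells *ackr3b* reached 126, 179, 78.5 and 134 CPM against 7.06 to 9.62 CPM in the other cells, a 16.0-fold difference (SE of the log2 fold 0.14, adjusted p = 8.0e-18), and then exceeded *krt92*-rich cells (30.6, 37.2, 41.7 and 19.01 CPM). The entry *ackr3b_1*, with 158 UMIs in all, rose in *sox32*-positive cells too (log2 2.23, SE 0.21, adjusted p = 0.0021). *ackr3a*, the other gene for Ackr3, did not exceed 0.0843 CPM in any library.

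*aplnra*, an Apelin receptor gene, was high in cells with the EVL marker and in cells with the lateral mesoderm marker, and the order of these levels depended on the selection. *krt92*-positive cells held 300, 316, 314 and 167 CPM (mean 274 ± 72.0, SD, n = 4), against 53.0 to 56.1 CPM in whole libraries, a 6.18-fold difference from negative cells (log2 2.63, SE 0.25, adjusted p = 7.5e-07). The EVL list, which includes *krt92*, was also lower in *krt92*-positive cells of M*rbm24a* 2, at 20198 CPM against 59043 to 66185 CPM in the other libraries. Its part in the low *aplnra* value was not tested. With *krt92* over 1000 CPM in a cell, *aplnra* stood at 339, 407, 316 and 368 CPM, and M*rbm24a* 2 no longer stood apart. Cells with *twist1a* over 1000 CPM gave 315 to 555 CPM. In sibling 2, 579 cells were *krt92*-positive at a median of 868 UMIs, and its 71 *krt92*-rich cells, all of at least 3000 UMIs, held 393 CPM.

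*twist1a*-rich cells held 302, 336, 260 and 255 CPM of *aplnra*, 6.02-fold above the remaining cells (log2 2.59, SE 0.081), and did not differ beyond the spread from *krt92*-rich cells (335, 393, 316 and 195 CPM). *tbx6l*-rich cells were lower, with 105, 112, 76.1 and 84.5 CPM (log2 0.91). *her3*-rich cells held 6.57, 8.26, 21.2 and 4.86 CPM, 7.31-fold lower than the remaining cells. *noto*-rich cells, of the axial mesoderm marker, held 35.5, 46.5, 49.2 and 51.2 CPM, slightly below the remaining cells (log2 −0.35). *aplnra* thus rose with the EVL, lateral and paraxial markers, and fell with the neural one. The slight decrease with the axial marker did not hold at the stricter cut. With *noto* over 1000 CPM, *aplnra* stood at 36.4 to 67.4 CPM, against 52.4 to 53.8 CPM in the other cells.

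*aplnrb*, the other Apelin receptor gene, lacked the EVL peak. *krt92*-rich cells held 29.8, 31.9, 45.7 and 28.5 CPM, below the other cells (58.7 to 65.5 CPM), and its log2 fold there was −0.75. It was highest in *twist1a*-rich cells (318, 356, 328 and 270 CPM, 5.61-fold, log2 2.49, SE 0.074) and next in *tbx6l*-rich cells (224, 245, 225 and 228 CPM, 4.09-fold, log2 2.03, SE 0.057). By the 0.5 rule the *tbx6l*-positive cells (115, 139, 93.0 and 86.3 CPM) and the *twist1a*-positive cells (115, 125, 90.5 and 88.9 CPM) did not differ beyond their spread. In *her3*-rich cells *aplnrb* was 7.09-fold lower than in the remaining cells.

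*s1pr5a*, the sphingosine-1-phosphate receptor gene, was low over all cells (11.3, 13.8, 11.0 and 10.6 CPM) and highest in cells with the endoderm marker. *sox32*-positive cells held 20.6, 26.5, 15.6 and 16.8 CPM (log2 1.91, SE 0.075, adjusted p = 0.00028). *sox32*-rich cells held 91.7, 121, 66.9 and 97.05 CPM, against 5.64 to 8.78 CPM in the other cells, a 13.7-fold difference (log2 3.78, SE 0.098, adjusted p = 1.1e-19). All other rich populations stayed at or below 26.8 CPM in each library.

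**Figure D3:**
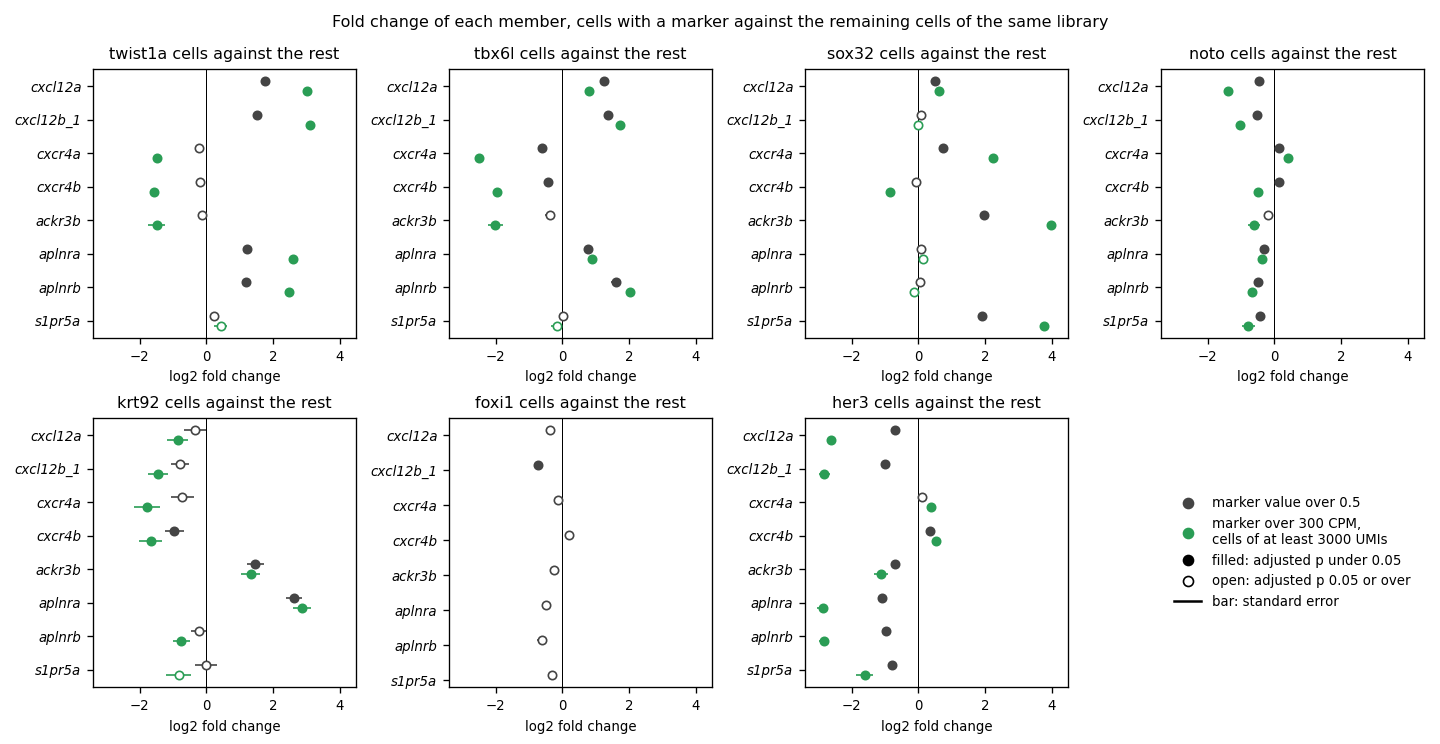
Log2 fold change of each tested gene entry except *ackr3b_1* in marker-positive cells (value over 0.5, grey) and marker-rich cells (over 300 CPM, green) against the remaining cells of the same library, 1 panel per marker. Bars are standard errors, filled symbols passed an adjusted p of 0.05, and *foxi1* has no marker-rich test; *s1pr5a* reaches 3.78 in *sox32*-rich cells, where *ackr3b* is higher still.

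Counted by population, 9 entries were tested in each, and the share of all tested genes that passed is the background for each count. Of the 9, 5 rose and none fell in *sox32*-positive cells (background 17.9%), and 4 rose and none fell in *twist1a*-positive cells (8.38%). In *tbx6l*-positive cells 4 rose and 2 fell (21.5%). In *krt92*-positive cells 2 rose and 1 fell (24.1%), a share near the background. In *foxi1*-positive cells 1 entry, *cxcl12b_1*, fell (log2 −0.73, SE 0.12, adjusted p = 0.028, background 2.96%), and it passed no longer without either M*rbm24a* library. The median log2 fold over the 9 entries was 0.50 for *sox32*, 0.24 for *twist1a*, 0.04 for *tbx6l*, −0.22 for *krt92* and −0.37 for *foxi1*, with medians of all genes between −0.08 and 0.00.

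*noto*-positive and *her3*-positive cells mostly held less of these genes. For *her3*, *cxcr4b* rose and 7 entries fell (background 20.5%), among them *aplnra*, *cxcl12b_1*, *aplnrb* and *cxcl12a* (log2 −1.08, −0.98, −0.97 and −0.68). For *noto*, 2 entries rose and 5 fell (background 7.79%), with *cxcl12b_1* at log2 −0.52 (SE 0.067, adjusted p = 0.0020), *aplnrb* at −0.48 (SE 0.068, adjusted p = 0.0033) and *cxcl12a* at −0.46 (SE 0.11, adjusted p = 0.033), and *cxcr4a* at 0.15 (SE 0.037, adjusted p = 0.039). The *noto* count went down to 2 without sibling 1, to 4 without sibling 2 and to 2 at a value over 4.5, where 1.11%, 6.33% and 4.03% of all genes passed. These directions depended on the reference: against cells with none of the 7 markers, *cxcl12a* had a log2 fold of 0.71 in *noto*-positive and 0.55 in *her3*-positive cells, and *aplnra* 0.96 and 0.38. *cxcl12b_1* in *foxi1*-positive cells turned to 0.39.

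In rich cells the decreases were larger. In *noto*-rich cells 1 entry rose, *cxcr4a* (519, 489, 359 and 407 CPM, log2 0.42, SE 0.042), and 7 fell, including *cxcl12a* (log2 −1.37), *cxcl12b_1* (−1.02) and *cxcr4b* (−0.49), which had been slightly higher in *noto*-positive cells (0.13, SE 0.036, adjusted p = 0.048). In *her3*-rich cells *cxcr4b* and *cxcr4a* rose and 6 fell. In *tbx6l*-rich and in *twist1a*-rich cells 4 rose, both Cxcl12 genes and both Apelin receptor genes, and 3 fell, both *cxcr4* genes and *ackr3b*. In *sox32*-rich cells 5 rose and 1 fell, and in *krt92*-rich cells 2 rose and 5 fell. The background was 36.0% for *krt92*, 16.5% for *sox32*, 18.4% for *noto*, 17.3% for *tbx6l*, 12.2% for *twist1a* and 13.7% for *her3*. The 2 sets of cells behind each fold differ in depth and in the reference as well as in the marker.

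**Figure D4:**
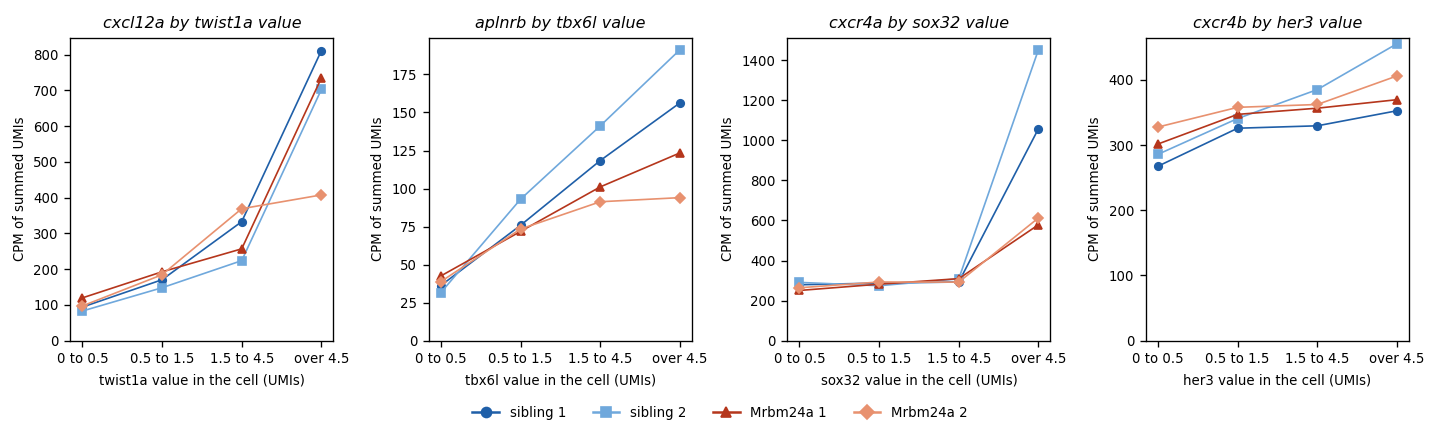
Levels in CPM (linear axes) of *cxcl12a* by *twist1a* value, *aplnrb* by *tbx6l* value, *cxcr4a* by *sox32* value and *cxcr4b* by *her3* value in a cell, in bins of up to 0.5, 0.5 to 1.5, 1.5 to 4.5 and over 4.5 UMIs, with 1 line per library. *cxcl12a* and *aplnrb* climb bin by bin, *cxcr4a* changes little up to the last bin, and *cxcr4b* is higher in the last bin than in the first.

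The relation to the amount of marker in a cell differed in shape between genes. Over bins of *twist1a* value up to 0.5, to 1.5, to 4.5 and above, the mean level of *cxcl12a* over the 4 libraries was 98.4, 174, 296 and 664 CPM. *aplnrb* was at 37.3, 78.5, 113 and 141 CPM over the same bins of *tbx6l*. *cxcr4a* was at 271, 284 and 301 CPM in the first bins of *sox32* and at 925 CPM in the last, with 1058, 1452, 578 and 613 CPM in the libraries. *cxcr4b* was at 267 to 328 CPM in the lowest bin of *her3* and at 353 to 455 CPM in the highest. A marker value of 1 UMI thus went with little *cxcr4a* above that of marker-negative cells.

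Between genotypes, the whole libraries did not differ detectably in these genes. None of the 9 tested entries passed edgeR's quasi-likelihood test, against a background of 1.1% of all genes, with 195 called of 17768. None had an unadjusted p below 0.05 in that test (16.8% of all genes did). None passed by DESeq2 or limma, which called 437 and 255 of the 17768 genes. The log2 folds of M*rbm24a* over siblings lay between −0.29 and 0.17. Without sibling 1, *cxcl12a* passed as higher in M*rbm24a* (log2 0.41, SE 0.073, adjusted p = 0.00090), under a setting that called 20.3% of all genes and whose error rests on the spread between the M*rbm24a* libraries alone. In such sums, fewer cells of a type and less RNA per cell cannot be told apart.

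Within the marker-positive cells, 0 of 60 tests between genotypes passed by edgeR. Unadjusted p-values were below 0.05 for 4 entries in *sox32*-positive, 5 in *tbx6l*-positive, 3 in *twist1a*-positive, 3 in *her3*-positive, 2 in *foxi1*-positive and 1 in *noto*-positive cells, and for 0 in *krt92*-positive cells. The shares of all genes with such a p were 12.8%, 11.1%, 6.64%, 14.6%, 9.66%, 13.2% and 5.11% in the same order. DESeq2 called 1 entry, in *tbx6l*-positive cells, and none elsewhere. The background shares for adjusted calls were 1.45% for *sox32*, 0.378% for *noto*, 0.109% for *tbx6l*, 0.0144% for *foxi1*, 1.27% for *her3* and 0.0% for both *krt92* and *twist1a*. The lowest adjusted p-values were in *tbx6l*-positive cells, with *cxcl12b_1* at log2 −0.60 (SE 0.10, adjusted p = 0.12) in M*rbm24a*, and in *sox32*-positive cells, with *ackr3b* at −0.53 (SE 0.14, adjusted p = 0.14). *s1pr5a* stood at −0.49 (SE 0.14, adjusted p = 0.17) in *sox32*-positive cells, and its larger difference in *krt92*-positive cells (−1.06) had an SE of 0.66 (adjusted p = 0.82).

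The endodermal receptor genes showed how far a genotype difference depended on which cells were taken. In cells with a *sox32* value over 4.5, *ackr3b* fell in M*rbm24a* by 1.20 on the log2 scale (SE 0.23, adjusted p = 0.00015), *s1pr5a* by 1.10 (SE 0.22, adjusted p = 0.00048) and *cxcr4a* by 0.95 (SE 0.26, adjusted p = 0.019). *cxcr4a* stood there at 1058, 1452, 578 and 613 CPM, so the genotypes did not overlap. In cells with *sox32* over 1000 CPM, *cxcr4a* stood at 2208, 2368, 2185 and 2198 CPM, *ackr3b* at 205, 275, 172 and 239 CPM and *s1pr5a* at 152, 172, 153 and 187 CPM, and none passed (log2 −0.07, SE 0.13; −0.19, SE 0.19; 0.09, SE 0.15). Over 300 CPM none passed either, with *cxcr4a* at log2 −0.40 (SE 0.17, adjusted p = 0.56).

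Other values moved with these differences. In cells with a *sox32* value over 4.5, *sox32* itself stood at 1070, 1539, 425 and 508 CPM, the endoderm gene *sox17* at 126, 153, 46.0 and 56.6 CPM, and the EVL gene *lye* at 106, 55.9, 322 and 426 CPM, at a median depth of 21955, 13819, 29202 and 20195 UMIs. In cells over 1000 CPM, *sox32* stood at 2513, 2672, 2082 and 2383 CPM, *sox17* at 326, 268, 246 and 304 CPM, and the median depth was 15905, 12593, 12787 and 11040 UMIs. The level of *sox32* is tied to the selection, since *sox32* chose these cells. Apart from it, cells taken by a fixed UMI value held less *sox17* and more *lye* in M*rbm24a* libraries, while their depths overlapped between genotypes. The part of these values in the lower receptor levels was not tested.

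**Figure D5:**
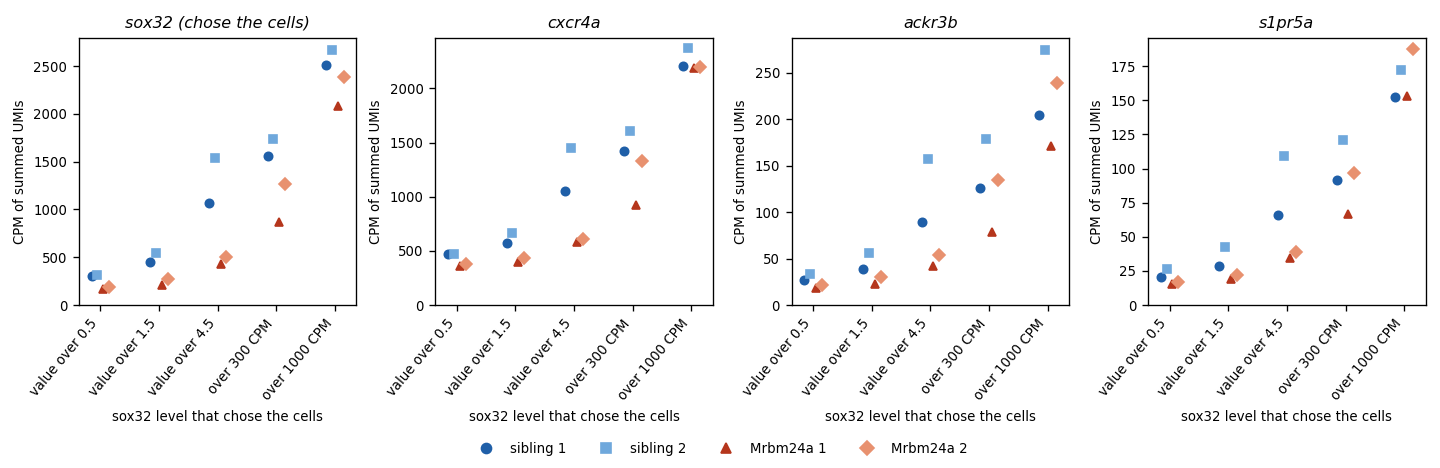
Levels in CPM (linear axes) of *sox32*, *cxcr4a*, *ackr3b* and *s1pr5a* in each library, in cells taken by a *sox32* value over 0.5, 1.5 or 4.5 UMIs or by *sox32* over 300 or 1000 CPM of a cell's UMIs, with 1 point per library. The sibling and M*rbm24a* points of *cxcr4a* lie apart at a value over 4.5 (1058 and 1452 against 578 and 613 CPM) and together over 1000 CPM (2185 to 2368 CPM).

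The difference between genotypes in the ratio of marker-positive to marker-negative cells was tested as an interaction. It passed for 4 entries, all for *her3*, against a background of 3.8% of genes: *cxcl12a* (0.59 on the log2 scale, SE 0.10, adjusted p = 0.00025), *aplnra* (0.60, SE 0.11, adjusted p = 0.00045), *aplnrb* (0.60, SE 0.11, adjusted p = 0.00045) and *cxcl12b_1* (0.47, SE 0.11, adjusted p = 0.012). The log2 ratio of *cxcl12a* was −0.86, −1.13, −0.50 and −0.44, and that of *aplnra* −1.18, −1.43, −0.75 and −0.85, so both genes were lower in *her3*-positive cells of every library, and less so in M*rbm24a*. The *her3*-positive cells of M*rbm24a* also held fewer cells with a *her3* value over 4.5 (257, 186, 48 and 51 cells). The neural list, which includes *her3*, had a lower sum in them (1329, 1418, 1054 and 1030 CPM). EVL transcripts stood at 113, 102, 338 and 490 CPM. *sox32* (0.76), *twist1a* (0.66) and *tbx6l* (0.74) moved in the same direction in that test. Their part in the result was not tested. The 4 entries also passed in cells with at least 3000 UMIs, where 736 of 16141 genes were called. No entry passed at a *her3* value over 1.5 or over 4.5 or in *her3*-rich cells.

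For the other markers no entry passed the interaction after adjustment. Unadjusted p-values of that test were below 0.05 for 0 to 7 of 9 entries per marker. The shares of all genes with such a p were 4.35% for *krt92*, 9.16% for *sox32*, 6.52% for *noto*, 6.44% for *tbx6l*, 1.87% for *twist1a* and 5.13% for *foxi1*. The highest count of entries thus lay above the share of all genes for any of these markers. The counts are pooled over markers here, so which markers exceeded their own share is not stated. Some log2 ratios still lay apart between genotypes: that of *aplnrb* for *tbx6l* was 1.54, 1.98, 1.04 and 1.06. That of *aplnra* for *twist1a* was 1.46, 1.20, 0.68 and 0.80. Others overlapped, such as *s1pr5a* for *tbx6l* (−0.0787, −0.0166, 0.10 and −0.19). The background of adjusted calls was 2.47% for *sox32*, 0.0368% for *noto*, 0.0244% for *tbx6l* and 0.0% for *krt92*, *twist1a* and *foxi1*. Among rich cells, some entries did pass, where 0.326% of all genes passed for *twist1a*, 0.393% for *tbx6l*, 0.504% for *noto* and 0.461% for *krt92*. *cxcl12a* had a smaller ratio in M*rbm24a* for *twist1a* (log2 −0.49, SE 0.070, adjusted p = 9.6e-05) and *tbx6l* (−0.42, SE 0.095, adjusted p = 0.0092), *aplnra* for the same markers (−0.60, SE 0.13, adjusted p = 0.020, and −0.54, SE 0.13, adjusted p = 0.026), and *cxcr4a* for *noto* (−0.33, SE 0.062, adjusted p = 0.00059). *cxcr4b* had a larger ratio for *krt92* (1.93, SE 0.50, adjusted p = 0.045), at 34.3 and 56.7 CPM in siblings and 170 and 199 CPM in M*rbm24a* libraries. Sums of the lineage lists moved too, but each list includes the gene that chose the cells. The lateral list summed to 1700 and 1979 CPM in *twist1a*-rich cells of siblings and 1454 and 1490 CPM in M*rbm24a*. The paraxial list in *tbx6l*-rich cells summed to 5097 and 5384 against 3914 and 3984 CPM. The EVL list in *krt92*-rich cells summed to 78007 and 88375 against 60741 and 27660 CPM. The part of these sums was not tested. The axial list in *noto*-rich cells overlapped between genotypes (2838, 3055, 2965 and 2570 CPM). These cells were chosen after the data had been seen, and the reference cells enter each ratio: *cxcl12a* in cells outside the *twist1a*-rich set was at 124 and 101 CPM in siblings and 149 and 137 CPM in M*rbm24a*.

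PGCs migrate by Cxcr4b, and cells with several PGC markers were few. Such cells are named by their markers only, and the paper reports that M*rbm24a* embryos have no PGCs at this stage. Cells with at least 4 of the 5 PGC markers *nanos3*, *dnd1*, *ca15b*, *tdrd7a* and *dazl* numbered 20 and 9 in the sibling libraries and 2 and 3 in the M*rbm24a* libraries. Those of the siblings were deep, with a median of 21599 and 20203 UMIs. *cxcr4b* stood at 480.6 CPM in these cells of sibling 1 (exact Poisson 95% interval 421.4 to 547.1, counting error only), against 294.7 CPM in its other cells, and at 493.4 CPM (390.9 to 611.8) against 326.2 CPM in sibling 2. *cxcr4a* stood at 302.9 CPM (256.5 to 356.8) against 350.4 CPM and at 242.6 CPM (173.7 to 331.0) against 345.0 CPM. The level of *cxcr4b* was thus above, and that of *cxcr4a* in sibling 2 below, the mean of the other cells beyond counting error. The level of *cxcr4b* was not particular to these cells. Over the libraries, *her3*-rich cells held 396 to 675 CPM of it and *foxi1*-rich cells 385 to 622 CPM. Both Cxcl12 genes were also above the other cells in sibling 2, *cxcl12a* at 221 CPM (153 to 303) against 130 CPM and *cxcl12b_1* at 105 CPM (60.2 to 165) against 56.3 CPM, while in sibling 1 their intervals held or touched the level of the other cells (162 to 244 against 163 CPM, and 36.7 to 81.1 against 56.9 CPM). Of the 20 cells in sibling 1, 19 held *cxcr4b*, which *her3*-rich cells held in 94.3% to 95.8%. No comparison was made for the few M*rbm24a* cells, whose median depth was 56079 UMIs in M*rbm24a* 1 and 72449 UMIs in M*rbm24a* 2.

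Other genes of these pathways, 45 symbols with 57 entries, were called most often in *krt92*-positive cells, where 7 of 25 tested entries rose and 3 fell (24.1% of all genes called). The largest rises were in *rgs2_1* (log2 9.41, SE 0.54), a regulator of G protein signalling, its other entry *rgs2* and the chemokine gene *ccl27a* (6.78). *sgpl1*, the lyase that breaks down sphingosine-1-phosphate, stood at 64.3, 56.1, 70.9 and 19.1 CPM in these cells and at 2.75 ± 0.355 CPM (SD, n = 4) in whole libraries. The decreases were in the G protein gene *gnai1* (log2 −1.38), the arrestin gene *arrb2a* (−0.95) and the integrin gene *itgb1b* (−0.81). In *sox32*-positive cells 2 of 19 rose, led by *rgs3a* (log2 1.13, SE 0.11), and 2 fell (17.9% of all genes). In *tbx6l*-positive cells 2 of 19 rose and 4 fell (21.5% of all genes), in *her3*-positive cells 1 of 19 rose, *s1pr2* (log2 0.31), and 4 fell (20.5%). The counts for *sox32* and *her3* were near the share of all genes. Of 19 entries each, 1 fell for *noto* (7.79% of all genes called), 1 rose and 1 fell for *twist1a* (8.38%), and 1 fell for *foxi1* (2.96%). *s1pr1*, the receptor gene related to *s1pr5a*, was at 0 in every library in all of its 3 entries. None of the 23 tested entries differed between whole libraries of the genotypes by edgeR, with an unadjusted p below 0.05 for 2 of them and for 16.8% of all genes.

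Likeness of pattern was measured over 28 sums, of 7 markers by 4 libraries, that share cells and libraries. *aplnrb* was most like *pcdh10b* (Pearson r = 0.98 of log2 levels), *cxcl12b_1* like *rdh10a* (0.95), *fn1a_1* (0.95) and *foxc1a* (0.93), *aplnra* like *pard6gb* (0.95), *cxcr4b* like *ddx5* (0.94), *cxcl12a* like *si:ch211-197h24.9* (0.90), *ackr3b* like *cyp2aa8* (0.89), *s1pr5a* like *phldb1b* (0.89) and *cxcr4a* like *rras* (0.85). Among the 9 genes themselves, *cxcl12b_1* went with *aplnrb* (0.93) and *cxcl12a* (0.88), *cxcr4a* and *cxcr4b* were less alike (0.56), and *cxcr4b* ran opposite to *aplnra* (−0.88). The pattern of *cxcr4a* was only weakly related to those of *cxcl12a* (0.11) and *cxcl12b_1* (0.14).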

How the data were processed

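Values were taken from the deposited matrix of the 4 libraries. According to the methods, the authors filtered reads with Trimmomatic (average quality 30), counted UMIs with Cell Ranger, corrected them for ambient RNA by DecontX, left out doublets found by Scrublet and kept barcodes within the median ± 5 median absolute deviations. The authors' values are therefore estimated counts per gene and cell, not whole numbers, and no further doublet caller was run. The submitters' processing notes name the build GRCz10. No genome of that build was used, so no coordinates or sequences are given. The cells are said to have been collected in 2 batches, with no statement of which library belongs to which, so within-batch values could not be given. Counting at the 3′ end does not allow levels of different genes to be compared.

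The counts of the cells of a library, or of the marker-positive and marker-negative cells of a library, were summed, rounded and compared using edgeR 4.0.16 under R 4.3.3 (TMM, filterByExpr, quasi-likelihood F test, adjusted p under 0.05 by Benjamini-Hochberg over all tested genes), with DESeq2 1.42.0 and limma 3.58.1 (log2 CPM + 1) as alternatives. Genotypes were compared in whole libraries, within populations of at least 50 cells per library, and as an interaction. With 2 libraries per genotype an exact permutation test cannot give a p below 0.3333. Levels are CPM, and neighbouring levels were called different beyond their spread where all 4 paired log2 (CPM + 5) differences had 1 sign and their mean exceeded 1 SD. Shares of cells were described without thinning, beside their depths. Other alternatives were size factors, no filter, leaving out each library, other marker values, cells of at least 3000 UMIs, and other reference cells. The tests were tried on simulated data. Python 3.11.15 with scipy 1.17.1 was used for the rest. The 9 genes, the marker and pathway lists and the rule for named genes (all 9, the 3 largest called changes of the pathway list in each direction, the 3 most alike genes) were chosen with earlier results of these data known.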

Additional observations from a re-analysis of the deposited data

Results flagged for a closer look

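The 63 sets of 4 log2 ratios (CPM + 5) of positive to negative cells, 1 set for each tested entry and marker, were examined for a library far from the other 3 by the 95% limit of Dixon's ratio, which chance passes in about 1 of 20 sets. It was passed in 4 of the 63. The ratio of *cxcr4a* for *noto* was −0.0672 in M*rbm24a* 2 and 0.12 to 0.15 in the others. That of *s1pr5a* for *noto* was −0.10 in M*rbm24a* 1 and −0.43 to −0.39 in the others. That of *ackr3b* for *her3* was −0.25 in M*rbm24a* 1 and −0.66 to −0.65 in the others, and that of *ackr3b_1* for *tbx6l* was −0.0366 in M*rbm24a* 1 and −0.14 to −0.12 in the others.

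The ratio of *her3*-positive to *her3*-negative cells differed between genotypes for 4 entries by the interaction test of edgeR, with log2 differences of 0.60 for *aplnra*, 0.60 for *aplnrb*, 0.59 for *cxcl12a* and 0.47 for *cxcl12b_1*. Markers of other lineages moved with it in the same cells, and their part was not tested.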

How the results depend on the processing

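Counts of the 9 entries called moved by more than 1.5 times under some settings, given here with the share of all tested genes called under the same setting; the cause was not tested. Without the filter on low counts the count was 5 for *krt92*-positive cells (21.7% of genes, 3 entries as reported) and 7 for *foxi1* (2.32%, 1 as reported), and between genotypes 1 for *noto*-positive (3.84%), 3 for *tbx6l*-positive (2.59%), 1 for *foxi1*-positive (1.76%) and 2 for *her3*-positive cells (3.23%), 0 each as reported. DESeq2 gave 6 for *foxi1* (4.24%), and 1 between genotypes in *tbx6l*-positive cells (0.798%), where the replicate block also gave 1 (1.26%). The replicate block changed no other count of these entries, while genes called between whole libraries went from 195 to 547. The replicate numbers did not pair the libraries (r = −0.007 across 17768 genes). At a marker value over 1.5 the count was 5 for *krt92* (30.6%) and 2 for *foxi1* (3.87%), 1 between genotypes for *sox32* (2.34%) and for *tbx6l* (0.549%), and in the interaction 2 for *sox32* (2.86%), 4 for *tbx6l* (1.05%) and 0 for *her3* (0.0748%, 4 as reported). Over 4.5 it was 8 for *krt92* (32.7%), 2 for *noto* (4.03%, 7 as reported), 7 for *twist1a* (2.71%, 4 as reported) and 4 for *foxi1* (3.88%), 4 between genotypes for *sox32* (3.25%), and in the interaction 2 for *krt92* (2.15%), 3 for *sox32* (2.77%), 2 for *foxi1* (0.706%) and 0 for *her3* (0.209%). In rich cells it was 7 for *krt92* (36.0%) and 7 for *twist1a* (12.2%), and in the interaction 1 for *krt92* (0.461%), 1 for *noto* (0.504%), 2 for *tbx6l* (0.393%), 2 for *twist1a* (0.326%) and 0 for *her3* (0.959%). With at least 3000 UMIs it was 5 for *krt92* (29.7%). Against cells with no marker it was 6 for *krt92* (29.4%), 9 for *sox32* (22.1%, 5 as reported), 7 for *twist1a* (21.1%), 6 for *foxi1* (12.1%) and 4 for *her3* (6.04%, 8 as reported), and for cells with 1 marker against none 9 for *sox32* (10.3%), 7 for *twist1a* (11.3%), 4 for *foxi1* (6.11%) and 5 for *her3* (9.87%).

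Leaving out 1 library at a time gave 2 to 7 for *krt92* (13.8% to 36.8% of all genes), 5 for *sox32* (7.93% to 14.4%), 2 to 6 for *noto* (1.11% to 6.33%), 6 to 8 for *tbx6l* (9.4% to 21.7%), 4 for *twist1a* (1.61% to 9.99%), 0 to 1 for *foxi1* (0.633% to 3.26%) and 8 to 9 for *her3* (10.9% to 18.9%). Between genotypes, where the arm left with 1 library is assumed to vary like the other, it gave 0 to 1 for whole libraries (0.0423% to 20.3%), *sox32* (0.14% to 4.49%) and *tbx6l* (0.0919% to 2.09%), 0 to 2 for *noto* (0.136% to 11.7%), 0 to 4 for *foxi1* (0.0% to 8.9%), 0 to 3 for *her3* (0.0825% to 12.2%) and 0 for *krt92* and *twist1a*. Where any entry was called, the highest counts between genotypes came without sibling 1, which also called most genes, except for *sox32*, where both were highest without sibling 2. This does not cover *krt92* and *twist1a*, for which no entry was called.

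Some log2 folds changed sign. Against cells with no marker, *noto*-positive cells had 1.02 for *s1pr5a*, 0.96 for *aplnra*, −0.18 for *cxcr4b*, 0.61 for *aplnrb*, 0.71 for *cxcl12a* and 0.63 for *cxcl12b_1*, *foxi1*-positive cells 0.39 for *cxcl12b_1*, and *her3*-positive cells 0.75 for *s1pr5a*, 0.74 for *ackr3b*, 0.38 for *aplnra*, −0.0518 for *cxcr4b*, 0.25 for *aplnrb*, 0.55 for *cxcl12a* and 0.27 for *cxcl12b_1*. *cxcr4b* in *noto*-positive cells was −0.11 for cells with 1 marker, −0.14 over 4.5 and −0.49 in rich cells. Between whole libraries, where no fold passed, *ackr3b* was −0.025 by limma and −0.0028 with at least 3000 UMIs, *aplnrb* was −0.027 by limma, −0.013 with at least 3000 UMIs, −0.012 without sibling 2 and −0.046 without M*rbm24a* 1, and *cxcl12a* was −0.029 without sibling 2; without 1 library at a time *aplnrb* ranged from −0.046 to 0.073 and *cxcl12a* from −0.029 to 0.41. For the 34 of 63 folds by population that passed as reported, 392 of 439 values under other settings kept direction and side of the threshold. Folds that passed only under other settings are not among these values.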
